A study of Mus spretus with 8 samples.

Results

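The ligand-activated nuclear receptors of liver were examined: Nr1i2, Nr1i3, Nr1h4, Nr1h3, Nr0b2, Ppara, Rxra, Esr1 and Nr3c1. All probes whose annotated gene symbol is 1 of these were taken, which gave 26 probes for 9 genes, out of 42957 probes and 22471 named genes on the array. The tested livers came from 4 Mus spretus mice (inbred SPRET/EiJ, male, 7 weeks old) fed Harlan diet that held p,p'-DDE at 450 mg/kg of feed, dissolved in corn oil, for 30 days. The comparison livers came from 4 males of the same strain that ate the diet with corn oil and no p,p'-DDE for the same time. p,p'-DDE is the long-lived breakdown product of the insecticide DDT. The whole liver was taken, so fewer cells of a type and less RNA per cell cannot be told apart. Each array was hybridised with Cy3-labelled liver RNA and each value is a log2 signal, so a difference of 1 is a doubling.

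Nuclear receptors of this kind are transcription factors that a small molecule switches on. PXR (Nr1i2) and CAR (Nr1i3) respond to foreign compounds and induce drug-metabolising enzymes, FXR (Nr1h4) responds to bile acids, LXRalpha (Nr1h3) to oxysterols and PPARalpha (Ppara) to fatty acids. RXRalpha (Rxra) is the partner that these receptors bind DNA with, and SHP (Nr0b2) is a receptor without a DNA-binding domain that represses the others and is itself induced by FXR. ERalpha (Esr1) and the glucocorticoid receptor (Nr3c1) bind steroid hormones. CAR in particular is held in the cytoplasm and moves to the nucleus when activated, so its activity can change with no change of its mRNA.

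The 8 arrays had nearly the same distribution of values. Their background level, set from probes for olfactory and vomeronasal receptors, lay between 7.55 and 7.84 in DDE livers and between 7.62 and 7.73 in control livers. Every array carried stained patches, over which neighbouring spots were brighter or dimmer together, covering 0.521% (DDE 1) to 7.68% (DDE 4) of the spots in DDE livers and 1.12% (control 1) to 9.52% (control 4) in control livers. Hepatocyte markers were above background on all 8 arrays for 6 of 6 genes. Their mean signal was 13.88 to 14.24 in DDE livers and 14.08 to 14.41 in control livers. Apob was the 1 of them that was called changed, and it fell. Alb and Serpina1c read 15.89 or more in every liver and Ttr reached 15.98, near the top of the scale, which limits what they can show. Markers of Kupffer cells and leukocytes averaged 8.77 to 9.34 in DDE livers and 8.63 to 9.64 in control livers, and 0 of 8 passed in limma, where an unadjusted p under 0.05 was met by 0 in the higher and 1 in the lower direction. The 9.34 was that of DDE 2, where Adgre1 read 11.53 in a stained patch, against 7.91 to 8.26 in the other DDE livers. The 6 stellate cell markers averaged 8.81 to 9.64 in DDE livers and 8.70 to 9.06 in control livers. The 9.64 was that of DDE 4, where Des read 13.65 in a stained patch, against 7.81 to 7.93 in the other DDE livers. Of the 6 markers 1 rose, Reln, which was above background in 2 DDE livers and 0 control livers. At an unadjusted limma p under 0.05 there were 3 higher and 1 lower, against 11.4% and 4.57% of all genes. Endothelial markers averaged 10.14 to 10.62 in DDE livers and 9.83 to 10.66 in control livers, with 0 of 5 past the threshold. The 5 cholangiocyte markers averaged 7.49 to 7.68 in DDE livers and 7.66 to 9.45 in control livers, with 0 past the threshold and none above background on all 8 arrays. The 9.45 was that of control 4, where Sox9 read 13.68 in a stained patch, against 7.91 to 8.04 in the other controls. The part of all these cell types in the results below was not tested.

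**Figure D1:**
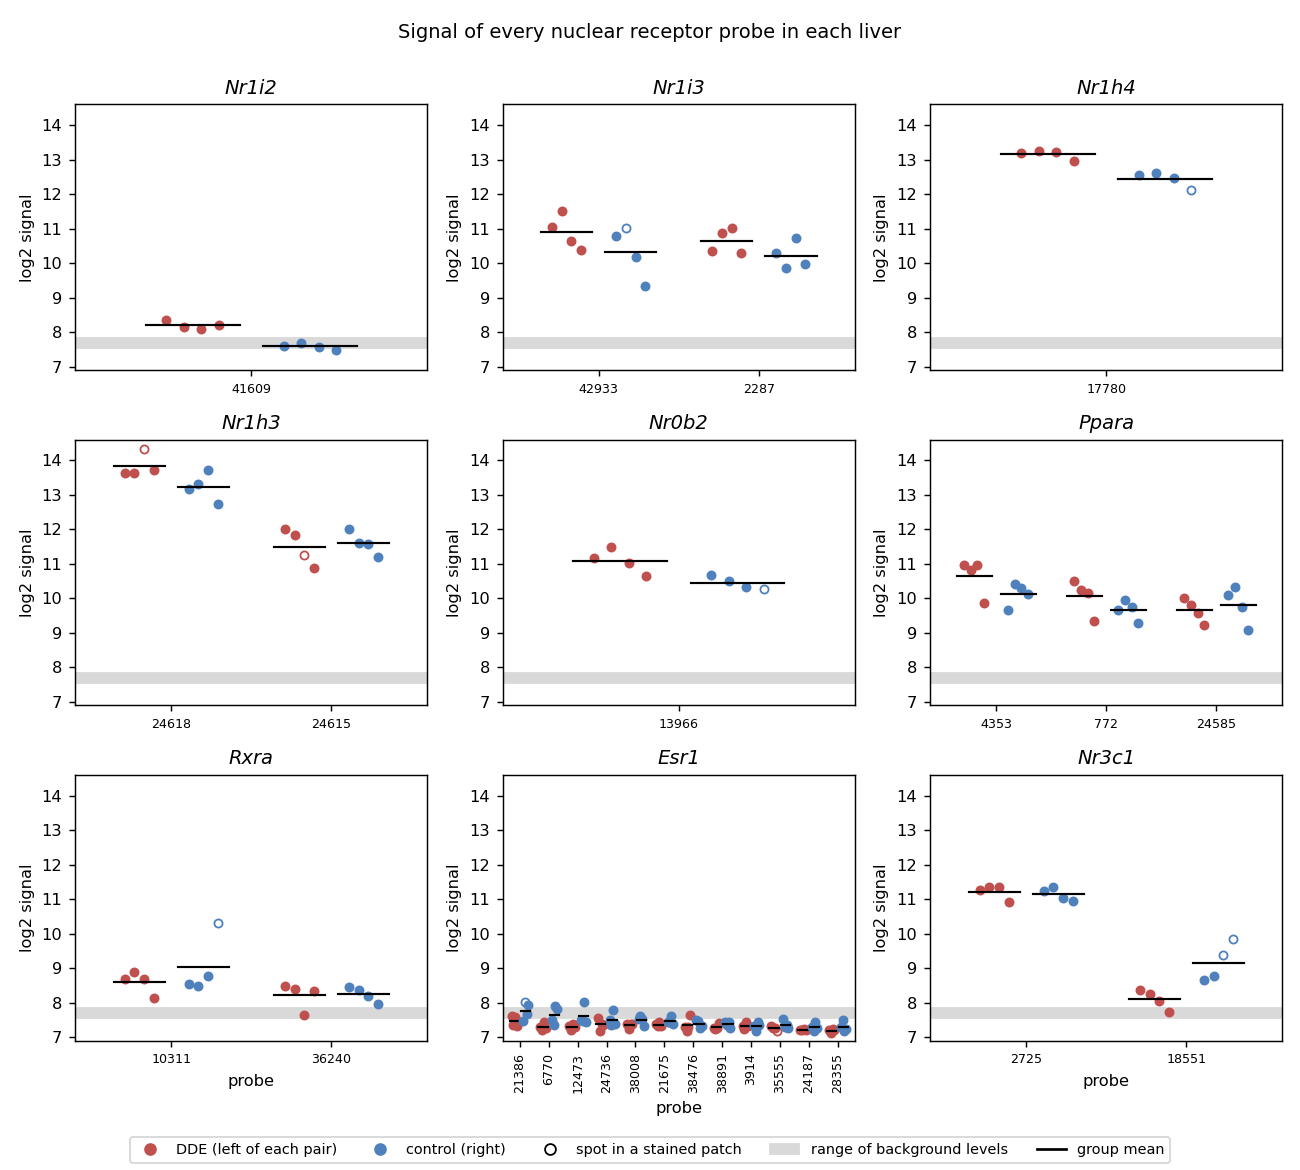
Log2 signal of all 26 probes of the 9 receptor genes, 1 panel a gene, with the 4 DDE livers (red) left of the 4 control livers (blue) for each probe. Black lines are group means, open circles are spots in stained patches and the grey band is the range of background levels over the arrays. The Nr1i2 and Nr1h4 points of the DDE livers lie above all of their control points, and nearly all Esr1 points lie in or below the band.

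Of the 9 receptor genes, Nr1i2 and Nr1h4 rose after DDE and none fell. In limma, 2 of 26 probes were higher and 0 were lower at an adjusted p under 0.05, while an unadjusted p under 0.05 was met by 4 in the higher and 2 in the lower direction. Over all probes of the array, 2.34% were called higher and 0.661% lower, and at the unadjusted threshold 10.7% were higher and 4.22% lower. By genes, each taken by its brightest probe, 2 of 9 were called higher, against 2.58% of all genes. The median change of the 9 brightest probes was 0.57, against 0.015 over all genes. Over all 26 member probes the median was -0.078, and over the 14 that are not of Esr1 it was 0.41. With dim probes left out, the median over the array was 0.078. A rise of the receptors as a set is thus not shown. With so few members, the shares called higher rest on 2 probes.

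**Figure D2:**
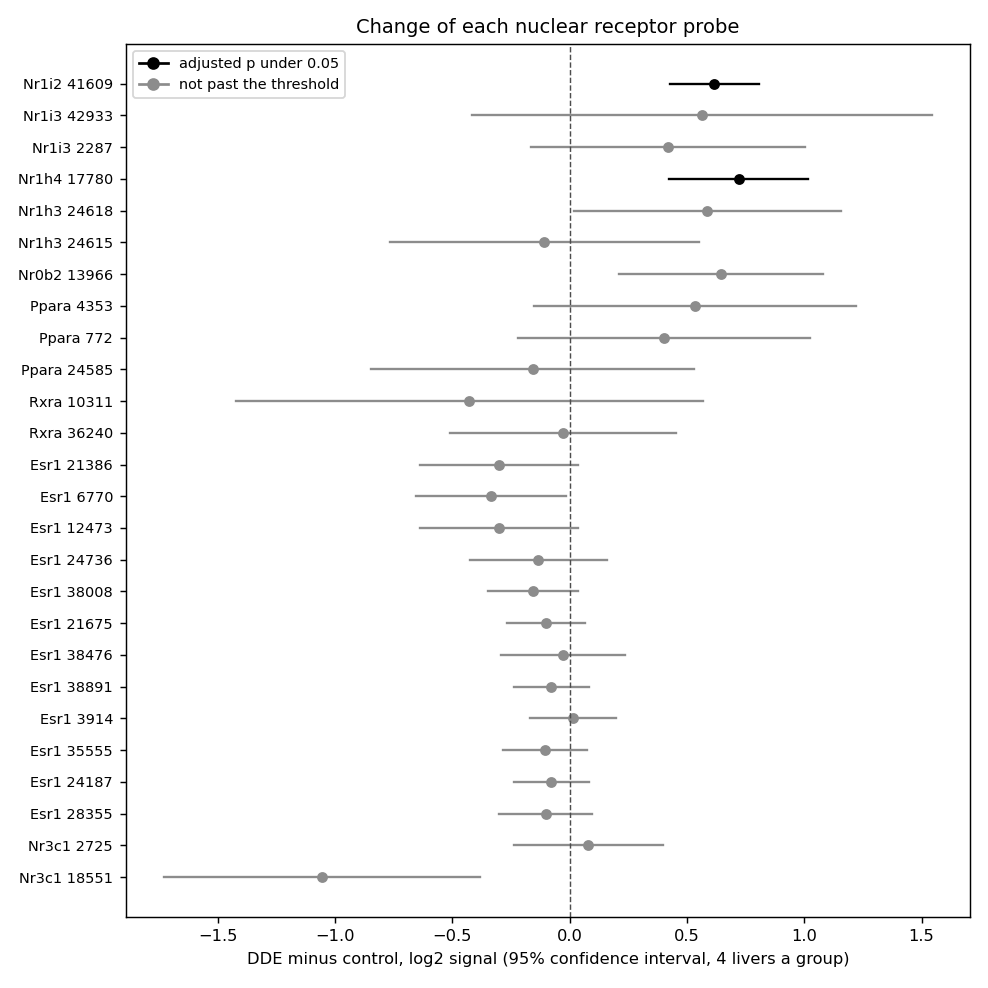
Difference in log2 signal, DDE minus control, of the 26 probes with its 95% confidence interval from limma (4 livers a group). Black marks the 2 probes past an adjusted p of 0.05, Nr1i2 at 0.62 and Nr1h4 at 0.72. The intervals of all other probes are drawn in grey.

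The receptors of foreign compounds differed in what could be measured of them. PXR, encoded by Nr1i2 (Entrez Gene 18171), had 1 probe, with log2 signals of 8.36, 8.14, 8.10 and 8.22 in DDE livers, against 7.59, 7.70, 7.58 and 7.48 in control livers. The groups did not overlap, as was the case in the same direction for 8% of all probes. All 4 DDE values were above their array's background level, but only that of control 2 among the controls was. Nr1i2 averaged 8.21 ± 0.11 in DDE livers and 7.59 ± 0.090 in control livers (SD, n = 4 each), a change of 0.62 (SE 0.082, limma adjusted p = 0.0153). With control values raised to the background level, it was at least 1.43-fold higher. The array around this spot was even, with neighbouring spots between -0.065 and 0.083 of their usual brightness on the 8 arrays. The call held without each array in turn, with adjusted p up to 0.0497. It was lost with an intensity trend in the variance (adjusted p = 0.0903).

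CAR, encoded by Nr1i3 (Entrez Gene 12355), had 2 probes well above background in all livers and neither passed. The brighter probe gave 11.06, 11.52, 10.64 and 10.37 in DDE livers, against 10.79, 11.03, 10.18 and 9.33 in control livers. The groups overlapped, control 4 was below the other controls, and the control 2 spot lay in a stained patch. The difference was 0.57, with a 95% confidence interval of -0.41 to 1.54 (limma adjusted p = 0.617). Without control 4 it was 0.23 (adjusted p = 0.755). The other probe gave 10.36, 10.87, 11.03 and 10.30 in DDE livers, against 10.30, 9.87, 10.74 and 9.97 in control livers. Here too the groups overlapped, with a difference of 0.42 and an interval of -0.16 to 1.00 (adjusted p = 0.525). The liver order differed between the probes: among DDE livers the first was highest in DDE 2 and the second in DDE 3. These intervals leave room for a rise of up to 1.00 on the second probe and more on the first, so CAR mRNA is not shown to be unchanged.

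FXR, encoded by Nr1h4 (Entrez Gene 20186), rose. Its single probe read 13.18, 13.26, 13.23 and 12.96 in DDE livers, against 12.55, 12.61, 12.47 and 12.12 in control livers. All DDE values lay above all control values, and array 4 was lowest in each group. Nr1h4 averaged 13.16 ± 0.14 in DDE livers and 12.44 ± 0.22 in control livers (SD, n = 4 each), 1.65-fold higher (log2 change 0.72, SE 0.13, limma adjusted p = 0.0344). The spot of control 4 lay in a stained patch whose other spots were 0.46 brighter than usual, while its own value was the lowest of the 8. With stained spots left out the change was 0.61 (adjusted p = 0.0207). The size of the change stayed between 0.61 and 0.79 when any array was left out, but the call was lost without DDE 1 (adjusted p = 0.0931), DDE 2 (0.107), DDE 3 (0.0914), control 1 (0.060), control 2 (0.0673) or control 3 (0.0867). It was also lost with an intensity trend in the variance (0.0812) and with the deviation of neighbouring spots subtracted (0.073).

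SHP, encoded by Nr0b2 (Entrez Gene 23957), a repressor of bile acid synthesis, did not pass. Its values were 11.16, 11.50, 11.04 and 10.65 in DDE livers, against 10.67, 10.50, 10.32 and 10.28 in control livers. Of the DDE livers, 3 lay above all controls, and DDE 4 lay just below control 1. The difference was 0.65 with an interval of 0.21 to 1.08 (limma adjusted p = 0.134). Without DDE 4 it was 0.79 and past the threshold (adjusted p = 0.0461). The control 4 spot was in a patch 2.05 brighter than usual, and the change without stained spots was 0.59 (adjusted p = 0.197). With the deviation of the neighbouring spots subtracted it was 1.23 (adjusted p = 0.291).

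LXRalpha, encoded by Nr1h3 (Entrez Gene 22259), had 2 probes whose changes had opposite signs, and neither passed. The brighter gave 13.63, 13.64, 14.32 and 13.73 in DDE livers, against 13.18, 13.33, 13.72 and 12.74 in control livers. Its highest value, that of DDE 3, was a spot in a patch 1.49 brighter than usual. The difference was 0.59 (limma adjusted p = 0.315) and 0.42 with stained spots left out (adjusted p = 0.414), and 0.14 with the deviation of neighbouring spots subtracted (adjusted p = 0.778). The dimmer probe read 12, 11.84, 11.26 and 10.89 in DDE livers, against 12, 11.62, 11.59 and 11.21 in control livers, with the groups spread over the same range. Its difference was -0.11, with an interval of -0.77 to 0.55 (adjusted p = 0.863).

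**Figure D3:**
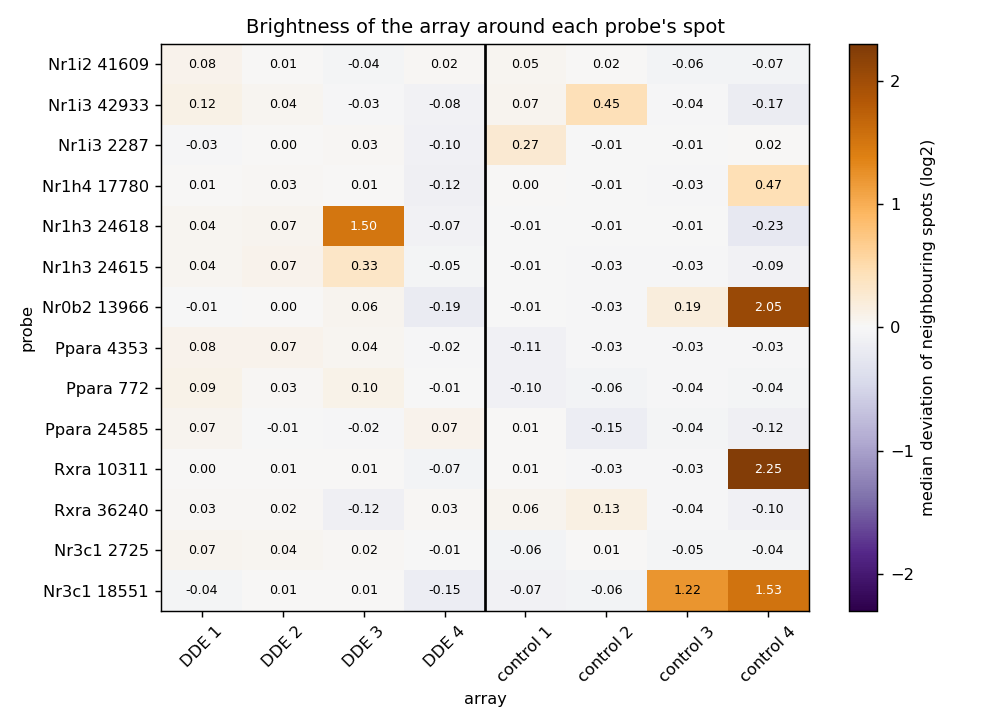
Median deviation (log2) of the spots around each spot of the 14 probes that are not of Esr1, from those spots' own medians over the 8 arrays; rows are probes and columns arrays, DDE left of control. The strongest patches lie under Rxra probe 10311 (2.25) and Nr0b2 probe 13966 (2.05) in control 4, Nr3c1 probe 18551 in controls 3 and 4, and Nr1h3 probe 24618 in DDE 3.

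PPARalpha, encoded by Ppara (Entrez Gene 19013), had 3 probes above background in all livers, none in a stained patch, and none passed. The brightest gave 10.98, 10.83, 10.98 and 9.87 in DDE livers, against 9.66, 10.43, 10.31 and 10.13 in control livers. DDE 4 fell among the controls, whereas the other DDE values were above all of them. The difference was 0.53, with an interval of -0.15 to 1.22 (limma adjusted p = 0.485). The remaining probes differed by 0.40 (interval -0.22 to 1.02) and -0.16 (interval -0.84 to 0.53), so the sign was not shared by the 3.

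RXRalpha, encoded by Rxra (Entrez Gene 20181), showed no called change on its 2 probes. Probe 36240, with no stained spot, read 8.50, 8.41, 7.66 and 8.33 in DDE livers, against 8.46, 8.38, 8.19 and 7.98 in control livers. Its difference was -0.03 with an interval of -0.51 to 0.45 (limma adjusted p = 0.956), which does not reach a 2-fold change of signal in either direction. The signals lay close to background, with DDE 3 at 7.66 against a background level of 7.63 on that array. The interval therefore does not bound the change of the mRNA. Probe 10311 read 8.69, 8.88, 8.69 and 8.13 in DDE livers, against 8.54, 8.48, 8.77 and 10.31 in control livers. The value of control 4 stood alone, in a patch 2.25 brighter than usual, and it alone set the sign: the difference was -0.43 with it (adjusted p = 0.637) and 0.00083 without it (adjusted p = 0.999).

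The steroid receptors gave no called change. ERalpha, encoded by Esr1 (Entrez Gene 13982), was at background: over its 12 probes, 1 of 48 DDE values and 6 of 48 control values were above the background level, and the signals ran from 7.12 to 8.03. Of the 12 probes, 11 had a lower mean in DDE livers, with differences of -0.34 to 0.01, and adjusted p was 0.308 or more in limma. Whether several of these probes carry the same sequence was not tested, so they may not be 12 separate measurements. A change of Esr1 was not detectable at this signal.

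The glucocorticoid receptor, encoded by Nr3c1 (Entrez Gene 14815), had 2 probes that differed in behaviour. The brighter read 11.27, 11.35, 11.36 and 10.92 in DDE livers, against 11.23, 11.36, 11.05 and 10.94 in control livers. These groups covered the same range, with a difference of 0.08 and an interval of -0.24 to 0.40 (limma adjusted p = 0.781). The dimmer read 8.37, 8.26, 8.05 and 7.74 in DDE livers, against 8.65, 8.77, 9.38 and 9.84 in control livers. Here all DDE values were below all control values, as for 3.80% of all probes, and the difference of -1.05 did not pass (adjusted p = 0.116). The highest values, of controls 3 and 4, were spots in patches 1.22 and 1.53 brighter than usual. Without them the difference was -0.60 (adjusted p = 0.181), and with the deviation of neighbouring spots subtracted it was -0.36 (adjusted p = 0.396).

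The receptors also varied together between livers of a group. Among the 12 member probes above background on all 8 arrays, DDE 4 was the lowest DDE liver on 10 and control 4 the lowest control liver on 9. This was not confined to the receptors. Of all 13554 probes above background on every array, DDE 4 was lowest of its group on 50.3% and control 4 on 69.4%. Each mouse had 1 array, and whether the array, the liver or its RNA set these shares was not tested. With DDE 4 and control 4 left out, Nr1i2 changed by 0.58 (limma adjusted p = 0.0404) and Nr1h4 by 0.68 (adjusted p = 0.0183), and 2 member probes passed as before.

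The genes whose signals followed the called receptors most closely over the 8 arrays are given as a description. For Nr1i2 they were Slc35a4 (Pearson r = 0.989), the chemokine gene Ccl9 (0.978) and Rbpms (0.972), out of 8477 genes above background on every array. For Nr1h4 they were Mthfsl (r = 0.993), Cyp27a1 (0.990), a sterol hydroxylase of bile acid synthesis, and the predicted gene Gm12372 (0.988). These values share the difference between the groups, which all 6 genes have: Ccl9 averaged 13.27 in DDE livers and 11.24 in control livers, and Cyp27a1 averaged 11.86 in DDE livers and 11.05 in control livers. Cyp27a1 did not pass at this probe, the brightest of its 10 (limma adjusted p = 0.0647), but 3 of the other probes were called higher, with changes of 0.47 (adjusted p = 0.030), 0.49 (0.0346) and 1.39 (0.0376). All 3 had spots in stained patches, the last in DDE 2 and DDE 3 and the others in control 4.

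In the lists of other genes that follow, each gene is counted at its brightest probe, and called probes among the others are named beside the count. At the brightest probe, the share of the rest of the nuclear receptor family called higher was near that of all genes, but it rests on 1 gene. Of these genes, 7 were above background on no array. Of 36 other family members with a named probe, 1 rose and 0 fell, or 2.78%, against 2.58% of all genes called higher and 0.774% lower. That gene was Rarb, a retinoic acid receptor, with 9.43, 9.60, 9.21 and 8.88 in DDE livers, against 8.54, 8.41, 8.32 and 7.88 in control livers. The groups did not overlap at this probe (change 0.99, limma adjusted p = 0.0484), as in the same direction for 8.48% of all genes. The other Rarb probe changed by 0.08 (adjusted p = 0.942). The median change of these 36 genes was 0.11. Among 40 further probes of 16 of these genes, 3 were called higher and 0 lower, against 2.34% and 0.661% of all probes. These were 2 of the 10 probes of Pparg, the receptor of adipocyte differentiation, with changes of 1.55 (adjusted p = 0.0222) and 1.15 (0.0411), and 1 of the 2 probes of Nr1d2, a clock repressor (1.56, 0.0417). The DDE 3 spots of the called Nr1d2 probe and of the Pparg probe with the larger change lay in stained patches. At the brightest probe the change was 0.65 for Pparg (adjusted p = 0.535) and 0.43 for Nr1d2 (0.391).

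Coregulators and chaperones of the receptors had no called member at the brightest probe. Of 15 coactivators and corepressors, 0 passed in limma; unadjusted p fell under 0.05 for 4 that were higher and 3 that were lower, out of a background of 11.4% of genes higher and 4.57% lower. The smallest p in this list was that of Hdac3, the histone deacetylase of corepressor complexes, with 8.45 ± 0.064 in DDE livers and 8.06 ± 0.13 in control livers (SD, n = 4 each, adjusted p = 0.0537). Of 10 further probes in this list, 1 was called higher, that of the coactivator gene Ncoa1 (change 0.60, adjusted p = 0.0297), whose brightest probe had the opposite sign (-0.43, adjusted p = 0.313). Of 8 genes, chaperones together with Egfr, 0 passed and 0 were at an unadjusted p under 0.05. They include the CAR-retaining co-chaperone gene Dnajc7. In that list Egfr had the smallest p, with 12.36, 12.25, 11.79 and 11.43 in DDE livers, against 12.71, 13.69, 12.90 and 11.27 in control livers (adjusted p = 0.614). Of 16 further probes, 1 was called higher, that of the chaperone gene Hspa8 (change 0.67, adjusted p = 0.0258), whose brightest probe, near the top of the scale, had the opposite sign (-0.38, adjusted p = 0.626).

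**Figure D4:**
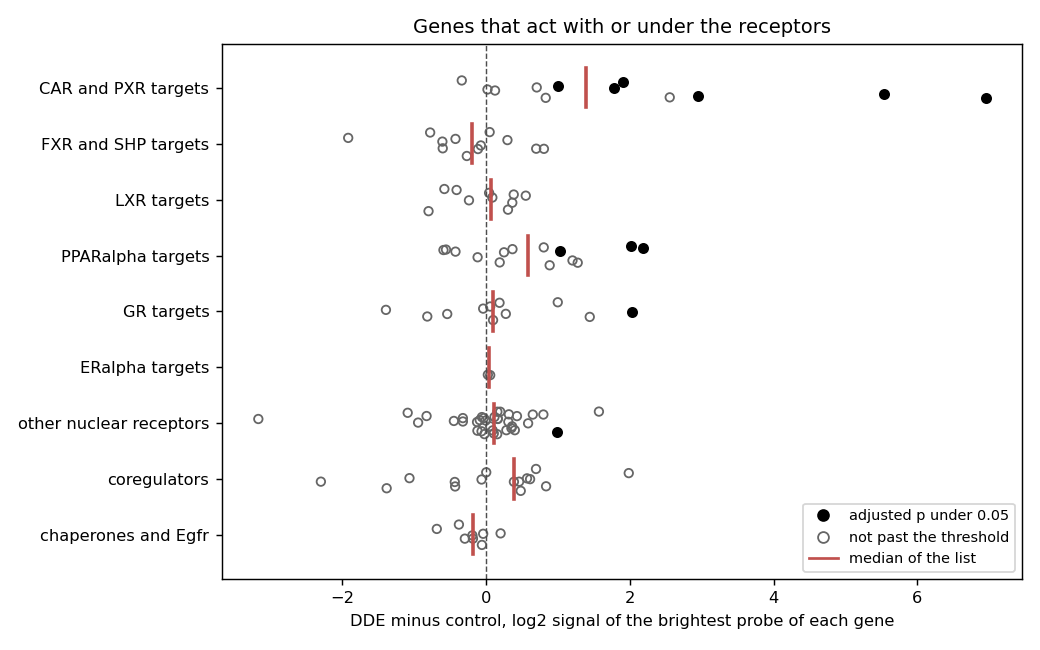
Difference in log2 signal, DDE minus control, of each listed gene at its brightest probe, grouped by the receptor that acts on it or by its role; filled points passed an adjusted p of 0.05 in limma and red lines are medians. CAR and PXR targets hold 6 of the 11 filled points and the 2 largest changes.

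Target genes of the receptors are given beside them. Of 12 CAR and PXR targets, 6 rose and 0 fell, with a median change of 1.39, against 2.58% called higher and a median of 0.015 over all genes. The largest called changes were in Cyp2b10 (at least 124-fold, with DDE values at the top of the scale), Cyp2c55 (at least 37.3-fold), the uptake transporter gene Slco1a4 (7.69-fold) and Gadd45b (3.73-fold), all in limma at an adjusted p of 0.0219 or less. Cyp2b10, the standard CAR target, read 15.94, 15.94, 15.99 and 16 in DDE livers, against 8.79, 8.82, 8.87 and 9.57 in control livers. Alas1, the first enzyme of haem synthesis, did not pass but read 15.29, 15.86, 15.69 and 15.33 in DDE livers, against 11.61, 11.99, 14.66 and 13.69 in control livers (at least 5.88-fold, adjusted p = 0.105). Its groups did not overlap, as in the same direction for 8.48% of all genes, and its controls were widely spread. The highest control value, that of control 3, was a spot in a stained patch. The dimmer Alas1 probe changed by -0.14 (adjusted p = 0.733). The Cyp2b10 groups were far apart, while those of Nr1i3 overlapped on both probes. Cyp3a11, the standard PXR target, had 15.35 ± 0.28 in DDE livers and 15.69 ± 0.11 in control livers at its brighter probe (adjusted p = 0.344), where both groups were near the ceiling. At the other it rose by at least 1.23 (adjusted p = 0.040), with 15.79 ± 0.33 in DDE livers, near the ceiling, and 14.56 ± 0.37 in control livers. The DDE 4 spot of that probe lay in a stained patch. The remaining called probe of this list was the second of Cyp3a13 (change 1.14, adjusted p = 0.0119), a gene that also rose at its brightest probe.

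Of 12 FXR and SHP targets, 0 passed in limma at the brightest probe, with a median change of -0.19. The list mixes genes that FXR induces with genes that SHP represses, so this median does not show the activity of either receptor. At an unadjusted p under 0.05, 2 were higher and 2 lower, against 11.4% and 4.57% of all genes. Abcb11, the bile salt export pump that FXR induces, read 13.18, 12.41, 13.52 and 12.64 in DDE livers, against 13.65, 12.88, 12.90 and 12.61 in control livers, and Cyp7a1, which SHP represses, read 9.58, 10.25, 10.38 and 9.36 in DDE livers, against 9.14, 9.42, 10.11 and 9.71 in control livers. The groups overlapped for both genes. The smallest p of the list was that of Cyp27a1. Of 13 further probes of 5 of these genes, 4 were called higher and 0 lower: the 3 of Cyp27a1 given above and 1 of Slc10a1, the bile acid uptake transporter gene (change 1.35, adjusted p = 0.0184). The brightest Slc10a1 probe, near the top of the scale, changed by -0.11 (adjusted p = 0.787). Of 10 LXR targets, 0 passed. At an unadjusted p under 0.05, 2 were higher and 1 lower, beside the same shares of all genes. Abca1, a cholesterol exporter, had 10.27 ± 0.33 in DDE livers and 10.68 ± 0.36 in control livers (adjusted p = 0.49), and Lpl had the smallest p (change -0.58, adjusted p = 0.125). The dimmer Lpl probe had the opposite sign (0.785, adjusted p = 0.583).

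Of 14 PPARalpha targets, 3 rose and 0 fell: Vnn1, which makes pantothenate (4.52-fold, limma adjusted p = 0.00888), the fatty acid transporter gene Cd36 (4.06-fold, 0.0482) and Cpt1a, whose enzyme links fatty acids to carnitine for import into mitochondria (2.03-fold, 0.0234). The share of these targets called higher was 21.4%, against 2.58% of all genes, and their median change was 0.585, against 0.015. At an unadjusted limma p under 0.05, 7 were higher and 1 lower, against 11.4% and 4.57% of all genes. The DDE 4 spots of Vnn1 and Cd36 lay in stained patches. The Cpt1a call was made on 1 of its 11 probes. Of 12 further probes of this list 1 was called higher, that of Cyp4a10, a fatty acid hydroxylase gene (change 1.22, adjusted p = 0.0384), whose brightest probe did not pass (1.27, adjusted p = 0.148). Cyp4a14, a sensitive target, was at background, with 1 of 4 DDE values and 0 of 4 control values above it. Of 11 glucocorticoid receptor targets 1 rose, the clock gene Per1, with 9.79, 10.82, 10.83 and 10.26 in DDE livers, against 7.82, 7.80, 8.97 and 9 in control livers (4.08-fold, adjusted p = 0.0422). The share of this list called higher was 9.09%, which is 1 gene, against 2.58% of all genes. At an unadjusted p under 0.05, 1 was higher and 1 lower. Tat, a classical target of this receptor, had 12.15 ± 0.93 in DDE livers and 11.96 ± 0.37 in control livers (adjusted p = 0.853). The ERalpha targets Greb1 and Pgr were near background, with 1 of 4 DDE values and 0 of 4 control values of Greb1 above it and none of Pgr.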

How the data were processed

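Liver RNA of 8 mice was measured on 1-colour arrays, 1 array a mouse, 4 fed p,p'-DDE and 4 controls. The deposited table holds log2 signals that the authors had normalized, from 4.43 to 16 on each array; the scanner and their background correction, normalization and filters were not given in the sources used here. Values were used as deposited. Probes were named by the platform annotation supplied with the data (33009 with 1 symbol, 9948 with none). All 42957 probes were tested with limma 3.58.1 (R 4.3.3), DDE minus control, with no covariate, Benjamini-Hochberg adjustment over all probes and a threshold of 0.05; precision is limited by 4 arrays a group. Listed genes were measured by the probe with the highest mean. The receptors, lists and rules were chosen with earlier results of these data known. Up to 4 called genes a list, or that with the smallest p, were named, with Cyp2b10, Cyp3a11, Abcb11, Cyp7a1, Abca1, Cyp4a14 and Tat, and the 3 genes most correlated with each called receptor probe. Any other gene was named with its values known. Background on an array is the 0.95 quantile of its olfactory and vomeronasal receptor probes. A fold is written "at least" where values of the dimmer group were at or below that level (then raised to it) or values of the brighter group reached 15.8. A spot is in a stained patch where the median deviation of its neighbours, in a window of 7 rows by 5 columns, is beyond 0.3; arrays were laid out in rows of 85 spots by feature number. The procedure was tested on simulated data. Sequences and genome positions were not used here, and some listed genes are not reported here. Alternatives were 75th-percentile centring, quantile normalization, dropping dim probes, array weights, a robust variance that follows intensity, a replicate block, dropping single arrays or stained spots, and taking 1 probe or the mean of the probes of a gene. Subtracting the neighbours' deviation, and leaving out control 4 and DDE 4, were added after seeing the data.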

Additional observations from a re-analysis of the deposited data

Results flagged for a closer look

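In 6 of 52 groups of 4 livers, over the 26 receptor probes, the highest or lowest liver stood far from the rest of its group (chance gives about 1 in 20). Of these, 2 were spots in bright patches of the array: Nr1h3 probe 24618 read 14.32 in DDE 3, against 13.63 to 13.73 in the other DDE livers, with neighbouring spots 1.49 brighter than usual, and Rxra probe 10311 read 10.31 in control 4, against 8.48 to 8.77 in the other controls, with neighbouring spots 2.25 brighter. Ppara probe 4353 read 9.87 in DDE 4, against 10.83 to 10.98 in the other DDE livers, on an even part of the array (neighbours -0.02). The remaining 3 were Esr1 probes near background: 8.03 in control 3 at probe 12473 (7.43 to 7.5 in the other controls), 7.25 in DDE 2 at probe 38008 (7.38 in each of the other DDE livers) and 7.41 in DDE 4 at probe 38891 (7.25 to 7.27 in the other DDE livers).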

How the results depend on the processing

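The rises of Nr1i2 and Nr1h4 kept their direction in all 19 alternatives, with changes of 0.57 to 0.66 and 0.61 to 0.85. Nr1i2 stayed past the threshold in 17 of 19 (adjusted p = 0.0903 with the intensity trend and 0.0945 with the replicate block) and Nr1h4 in 10 of 19; besides the arrays named above, the Nr1h4 call was lost with the intensity trend (adjusted p = 0.0812), with the replicate block (0.0688) and with neighbouring spots subtracted (0.073), an adjustment of the same size for bright and dim spots. The number of member probes called higher, 2 as reported, was 0 with the intensity trend, 0 with the replicate block, 1 with neighbouring spots subtracted, and 1 to 3 when 1 array was left out; 0 were called lower in any alternative. Over all probes, 1005 higher and 284 lower as reported, the counts were 399 and 112 with the trend, 1607 and 533 with array weights, 1520 and 519 with neighbouring spots subtracted, 588 and 178 with 1 probe a gene and 611 and 164 with the mean of the probes (both over 22471 genes, fewer than the probes), and 443 lower without control 4 and DDE 4. Leaving out 1 array gave 271 (without DDE 2) to 1362 higher (without DDE 4) and 61 (without DDE 2) to 428 lower (without control 4). With the replicate block the counts were 8 and 1. Nothing in the labels says that the replicate numbers pair the mice. Deviations of same-numbered arrays correlated by -0.011 to 0.075, and 2 of 4 DDE arrays correlated best with their own number. With so few arrays this does not decide whether the mice were paired. Signs turned only on probes that were not called. Nr1h3 probe 24615 was 0.025 with array weights and -0.275 to 0.095 without single arrays. Rxra probe 10311 was 0.00083 with stained spots left out, 0.13 with neighbours subtracted, 0.16 without control 4 and DDE 4, and -0.61 to 0.00083 without single arrays; Rxra probe 36240 was -0.12 to 0.16, Ppara probe 24585 -0.40 to 0.013, Esr1 probe 38476 -0.13 to 0.027 and Esr1 probe 3914 -0.037 to 0.05 without single arrays, and Esr1 probe 3914 was -0.061 with neighbours subtracted. Nr3c1, by the mean of its probes, was -0.49 (adjusted p = 0.138). Apart from the constructions named, the cause was not tested. Signal limits Esr1, Greb1, Pgr and Cyp4a14, which were near background.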
